A study of Mus musculus with 8 samples.

Results

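The genes of the MHC class II pathway were followed in microglia, the macrophages that live within brain, retina and optic nerve, flow sorted from the optic nerves of C57BL/6 mice at 3 months of age. There were 10 genes: the antigen-presenting chains H2-Aa, H2-Ab1 and H2-Eb1, the invariant chain Cd74, the peptide exchange factor genes H2-DMa, H2-DMb1 and H2-DMb2, the genes of its inhibitor H2-Oa and H2-Ob, and the transcriptional co-activator Ciita. They were chosen by name, and 11 of the 37447 genes in the deposited table matched, because Ciita stands there on 2 rows. FFC mice (Nf1 flox/flox with GFAP-Cre) gave 4 libraries and FF mice (Nf1 flox/flox without Cre) gave 4, each with 2 from females and 2 from males. Both genotypes carry the floxed Nf1 alleles, and Cre under the GFAP promoter deletes Nf1 in astrocytes, not in the sorted cells, so the comparison asks how microglia differ when the astrocytes around them lack Nf1. The labels call the libraries biological replicates without saying whether each is 1 animal or a pool, so the p-values measure the spread between these libraries.

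MHC class II molecules are pairs of an alpha and a beta chain that display peptides from the endosomal pathway to CD4+ T cells. Cd74 holds the new pair together, fills its groove and guides it to the endosome, where proteases trim it to a small fragment. The H2-DM pair then exchanges that fragment for peptide, and the H2-O pair, best known from B cells, restrains H2-DM. Ciita binds no DNA itself: it acts through a complex of RFX, CREB and NF-Y proteins that sits on the X and Y boxes shared by class II promoters. Resting microglia are known for little class II, and interferon gamma is the classical inducer of Ciita in them.

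RefSeq promoter windows (GRCm38.p6, 250 bases before to 50 after a start site) were searched for X and Y boxes, and no binding was measured. Stretches are shown for the 6 genes whose window holds a Y box near the start site. Each stretch has 80 bases, is aligned on the Y box ATTGG and reads 5′ to 3′ on the strand of the gene. Capitals mark the Y box and, upstream of it, the X1 core (10 bases, in H2-Eb1 and H2-DMb1) or, failing that, the shorter core AACNNATG, which was chosen after the windows were seen.
H2-Aa, chr17:34287857-34287936, minus strand: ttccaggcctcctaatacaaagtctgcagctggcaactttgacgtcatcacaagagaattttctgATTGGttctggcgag
H2-Eb1, chr17:34305743-34305822, plus strand: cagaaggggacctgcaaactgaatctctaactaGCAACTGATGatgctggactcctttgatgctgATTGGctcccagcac
H2-DMb1, chr17:34153065-34153144, plus strand: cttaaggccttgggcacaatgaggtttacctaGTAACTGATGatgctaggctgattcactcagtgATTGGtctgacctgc
H2-DMb2, chr17:34145094-34145173, plus strand: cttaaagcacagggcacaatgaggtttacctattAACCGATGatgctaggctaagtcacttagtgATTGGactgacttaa
H2-Oa, chr17:34092271-34092350, plus strand: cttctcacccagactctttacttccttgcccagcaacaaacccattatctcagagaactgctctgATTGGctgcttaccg
H2-Ob, chr17:34238783-34238862, plus strand: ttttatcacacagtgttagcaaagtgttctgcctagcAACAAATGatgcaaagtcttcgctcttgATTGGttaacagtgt
The Y box lay 43 to 90 bases before the start site in these 6 genes. H2-Eb1 and H2-DMb1 held the X1 core with 18 to 30 bases between it and a Y box on the same strand, a pair found in 0.0548% of all 32851 promoter windows searched on both strands. The Y box alone is common, at 37.4% of windows, and the X1 core alone stood in 2.97%. With the shorter core the pair was found in 4 genes, H2-Eb1, H2-DMb1, H2-DMb2 and H2-Ob, against 0.122% of all windows. H2-Aa and H2-Oa matched neither core at that spacing, and the windows of H2-DMa held neither pair. H2-Ab1, Cd74 and Ciita had no window here. The H2-DMb1 and H2-DMb2 stretches were identical at 67 of 80 bases (83.8%), since these 2 genes are close copies and neighbours, and how reads were divided between the pair is uncertain.

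Levels are FPKM, fragments scaled to transcript length and library size, so genes can be set against each other, but no read counts are given and the depth behind a value is unknown. Microglia markers were present throughout: 10 of 10, among them Tmem119, P2ry12, Cx3cr1, Sall1 and Csf1r, were above 0 in every library, and they summed to 2360 to 4620 FPKM in FFC and 1510 to 4210 FPKM in FF, with 8 of 10 higher in FFC (median difference 0.45). FF 2 and FF 4 stood apart from the others, with a median Spearman correlation to the other 7 libraries of 0.398 and 0.464 against 0.507 to 0.597, the lowest summed FPKM, and 4.55% and 3.59% of their FPKM in olfactory and vomeronasal receptor genes (chemosensory receptors), against 0.734% to 1.86%. Results are therefore also given without these 2 libraries. FF 1 held the most FPKM in monocyte, B cell and T cell markers. In bulk RNA, fewer cells of a type and less RNA per cell cannot be told apart.

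All 10 genes had a higher mean in FFC than in FF on the log2(FPKM + 1) scale, and none passed the test. The median difference was 1.42, against 0.19 for all 17753 genes tested (a mean of at least 1 FPKM), of which 56.7% had a higher mean in FFC. In limma with Benjamini-Hochberg adjustment over all genes, 0 of the 10 passed 0.05, where the background was 0% of all genes. The smallest adjusted p among the 10 was 0.605. Unadjusted, 5 of the 10 had a p under 0.05 and a higher mean (H2-Aa, H2-Ab1, H2-Eb1, Cd74 and H2-Oa), against 4.52% of all genes (6.46% in either direction). The genotypes did not overlap for 2 of the 10, H2-Ab1 and Cd74, against 3.05% of all genes with every FFC value above every FF value and 1.29% with every one below. Without FF 2 and FF 4 the median difference of the 10 was 0.84, against 0.07 for all genes. In that setting 8 had a higher mean in FFC, against 52.6% of all genes. An unadjusted p under 0.05 was then seen for 0 of the 10 and for 998 of all 17753 genes. A covariate for the chemosensory receptor share gave a median of 0.50, against 0.0077 for all genes. With it 6 of the 10 were higher, against 50.2% of all genes. The part of the chemosensory receptor share in the differences was not tested beyond these values.

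**Figure D1:**
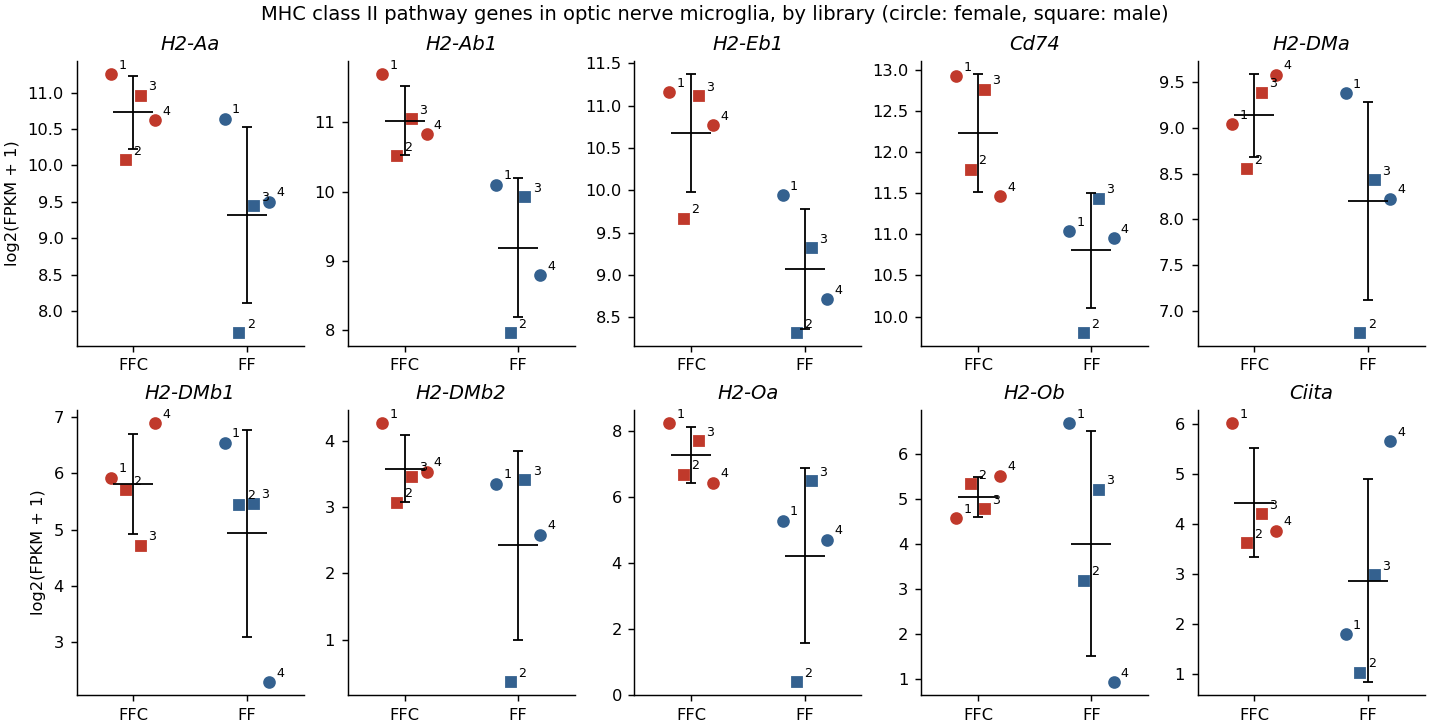
Level of each class II pathway gene, as log2(FPKM + 1), in the 4 FFC libraries (red, left) and the 4 FF libraries (blue, right), numbered by replicate, with circles for females, squares for males, and the mean with its SD in black; the vertical axes differ between panels and do not start at 0. H2-Ab1 and Cd74 do not overlap between the genotypes, FF 2 is the lowest library for 8 genes, and FF 4 is the lowest for H2-DMb1 and H2-Ob and the second highest for Ciita.

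The classical chain genes stood among the most abundant transcripts of these cells, with means in FFC that were 2.20 (H2-Aa), 2.99 (H2-Eb1) and 3.16 (H2-Ab1) times those in FF. H2-Ab1, the beta chain of I-A (ENSMUSG00000073421; mm9 chromosome 17, 34400154 to 34406363), had 3322, 1463, 2109 and 1823 FPKM in FFC 1 to FFC 4, against 1097, 248, 971 and 442 FPKM in FF 1 to FF 4. Every FFC library lay above every FF library. The means were 2179 ± 806 FPKM in FFC and 690 ± 409 in FF (SD, n = 4; ± after a mean is used in this way throughout), and the log2 difference was 1.83 ± 0.52 (SE; limma adjusted p = 0.605; exact two-sided permutation p = 0.0286, which is the lowest possible value with 8 libraries). Without FF 2 and FF 4 the difference was 1.01.

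H2-Aa, the alpha chain that pairs with H2-Ab1 (ENSMUSG00000036594, chromosome 17, 34406276 to 34424772), had 2441, 1077, 1987 and 1578 FPKM in FFC and 1596, 208, 694 and 724 FPKM in FF. FF 1 reached into the FFC range here, above FFC 2 and FFC 4. The log2 difference was 1.41 ± 0.57 (SE; limma adjusted p = 0.729; exact two-sided permutation p = 0.0857), 0.87 without FF 2 and 0.69 without FF 2 and FF 4. The annotated ends of H2-Aa and H2-Ab1 overlap by 88 bases, and the sources used here do not say whether counting was by strand.

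H2-Eb1, the beta chain of I-E (ENSMUSG00000060586, chromosome 17, 34442828 to 34453144), had 2288, 810, 2213 and 1745 FPKM in FFC and 984, 318, 637 and 419 FPKM in FF. FFC 2 lay between FF 1 and FF 3, and the other 3 FFC libraries lay above all FF libraries. Its log2 difference was 1.60 ± 0.49 (SE; limma adjusted p = 0.651; exact two-sided permutation p = 0.0571), and 1.05 without FF 2 and FF 4. In C57BL/6 mice the alpha chain partner of H2-Eb1 is a pseudogene, so the transcript is known to be made without an I-E molecule at the surface. That pseudogene, H2-Ea-ps, had 1.16, 30.5, 0.963 and 11.4 FPKM in FFC and 0.0165, 15.5, 0.655 and 0.873 in FF. The related beta chain gene H2-Eb2 had 0.198, 0.318, 0.145 and 0.137 FPKM in FFC and 4.33, 0.296, 0.0886 and 0.0169 FPKM in FF, below the filter on low values.

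Cd74, the invariant chain (ENSMUSG00000024610, chromosome 18), was the most abundant of the 10 in each of the 8 libraries. It had 7752, 3524, 6911 and 2820 FPKM in FFC, against 2100, 891, 2758 and 1979 FPKM in FF. The groups did not overlap, though FFC 4 and FF 3 lay close together. The means were 5252 ± 2443 FPKM in FFC and 1932 ± 774 in FF, with a log2 difference of 1.43 ± 0.46 (SE; limma adjusted p = 0.652; exact two-sided permutation p = 0.0286), and 1.00 without FF 2 and FF 4.

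Of the peptide exchange genes, H2-DMa was the most abundant, and its 2 beta partners were lower and more scattered. H2-DMa, the alpha chain of H2-DM (ENSMUSG00000037649), had 525, 374, 667 and 764 FPKM in FFC and 665, 107, 344 and 298 FPKM in FF. FF 1 exceeded FFC 1 and FFC 2 and matched FFC 3 closely. The log2 difference of 0.94 ± 0.56 (SE; limma adjusted p = 0.759) became 0.46 without FF 2 and 0.23 without FF 2 and FF 4.

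H2-DMb1, a beta chain of H2-DM (ENSMUSG00000079547), had 59.8, 51.0, 25.2 and 118 FPKM in FFC and 92.3, 42.6, 43.0 and 3.86 FPKM in FF. H2-DMb2, the other beta chain (ENSMUSG00000037548), had 18.3, 7.40, 10.0 and 10.6 FPKM in FFC and 9.25, 0.282, 9.64 and 5.01 FPKM in FF. The groups overlapped for both genes, and the low FF library was a different one, FF 4 for H2-DMb1 and FF 2 for H2-DMb2. Their log2 differences were 0.88 ± 0.88 and 1.16 ± 0.85 (SE; limma adjusted p = 0.774 and 0.759). For H2-DMb1 the difference was -0.0064 without FF 4 and -0.19 without FF 2 and FF 4, so its direction rests on FF 4, and it was 1.41 without FF 1. For H2-DMb2 it was 0.47 without FF 2 and 0.20 without FF 2 and FF 4. H2-DMa exceeded the sum of both beta chain genes in all 8 libraries, by 5.93 to 18.9 times in FFC and 2.51 to 33.6 times in FF.

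The chains of the H2-O inhibitor had unlike values across the libraries. H2-Oa, the alpha chain (ENSMUSG00000024334, chromosome 17, 34229285 to 34232179), had 300, 101, 205 and 85.1 FPKM in FFC, against 37.8, 0.310, 87.4 and 25.1 FPKM in FF. Only FF 3 reached the FFC range, just above FFC 4. The log2 difference of 3.04 ± 1.07 (SE; limma adjusted p = 0.712; exact two-sided permutation p = 0.0571) was the largest of the 10, and 0.597% of all genes tested had a larger one. It was 1.77 without FF 2 and 1.38 without FF 2 and FF 4. H2-Ob, the beta chain (ENSMUSG00000041538), had 22.8, 39.2, 26.4 and 44.8 FPKM in FFC and 102, 8.10, 36.03 and 0.913 FPKM in FF. The FFC values sat inside the wide FF range, with FF 1 the highest of the 8 libraries and FF 4 the lowest. The mean FPKM was lower in FFC (33.3 ± 10.4) than in FF (36.8 ± 46.2), while the log2 difference was 1.04 ± 1.04 (SE; limma adjusted p = 0.773). That difference was 0.02 without FF 4 and -0.90 without FF 2 and FF 4.

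**Figure D2:**
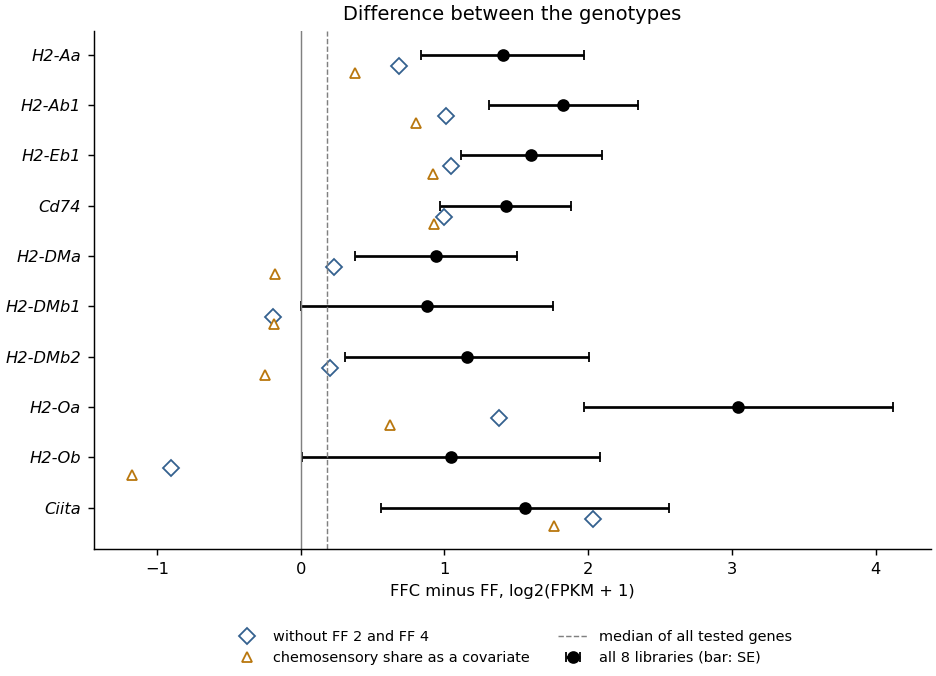
FFC minus FF on the log2(FPKM + 1) scale for each class II pathway gene with all 8 libraries (black, bar is the limma SE), without FF 2 and FF 4 (blue diamonds) and with the chemosensory receptor share as a covariate (orange triangles). The dashed line is the median of all tested genes in the main analysis of all 8 libraries, 0.19. H2-Aa, H2-Ab1, H2-Eb1, Cd74, H2-Oa and Ciita stay above 0 in all 3 settings, whereas H2-DMb1 and H2-Ob turn below 0 in both alternatives and H2-DMa and H2-DMb2 with the covariate.

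Ciita (ENSMUSG00000022504, chromosome 16, 10480237 to 10527657), the co-activator of the other 9, did not follow genotype closely. It had 63.9, 11.3, 17.3 and 13.5 FPKM in FFC, against 2.48, 1.03, 6.88 and 49.6 FPKM in FF. FF 4 had the second highest level of all libraries, and the other 3 FF libraries lay below every FFC library. The log2 difference was 1.56 ± 1.00 (SE; limma adjusted p = 0.759; exact two-sided permutation p = 0.200), 2.49 without FF 4 and 0.94 without FF 2. A second row named Ciita (ENSMUSG00000075404), whose 2455 bases lie inside the first, had 0.966, 0.836, 0.800 and 0 FPKM in FFC and 0, 0.632, 0 and 0.430 in FF. It did not pass the filter on low values and was not tested.

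Covariation with Ciita over the 8 libraries was moderate for most of the genes. Pearson's r with Ciita was 0.68 for Cd74, 0.66 for H2-Oa, 0.61 for H2-DMb2, 0.57 for H2-Aa, 0.51 for H2-Ab1, 0.46 for H2-Eb1 and 0.40 for H2-DMa. It was negative for H2-Ob (-0.37) and H2-DMb1 (-0.43). For Cd74, Spearman's rho was 0.62 (exact permutation p = 0.0551 for r and 0.115 for rho, adjusted p = 0.818 and 0.992 over the 17752 genes correlated with Ciita). None of the 9 had an unadjusted exact permutation p under 0.05 for r, against 6.02% of all genes. The other Spearman values ran from -0.36 (H2-Ob) to 0.62 (H2-Ab1), with an exact permutation p of 0.115 for H2-Ab1 (adjusted p = 0.992). Of all genes, 3.01% had a higher r with Ciita than Cd74, 9.98% a higher one than H2-Ab1 and 81.4% a higher one than H2-DMb1.

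The relation rested on a few libraries. Without FF 2 and FFC 1, the 2 libraries farthest from the median of Ciita, r with Ciita was 0.11 for Cd74, -0.36 for H2-Ab1, -0.79 for H2-DMb1 and -0.90 for H2-Ob. Without FF 4 it was instead 0.92 for Cd74, 0.90 for H2-Ab1, 0.83 for H2-Eb1 and -0.03 for H2-DMb1. FF 4 thus combined the second highest Ciita with the second lowest H2-Ab1. Without FF 2 and FF 4, r with Ciita was 0.94 for H2-Oa, 0.93 for H2-Ab1, 0.88 for Cd74 and 0.76 for H2-DMb2. It was then 0.71 for H2-Eb1, 0.56 for H2-Aa, 0.02 for H2-DMa, -0.23 for H2-DMb1 and -0.86 for H2-Ob. As deviations from the genotype means, r with Ciita was 0.56 for Cd74, 0.24 for H2-Ab1 and -0.71 for H2-DMb1.

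**Figure D3:**
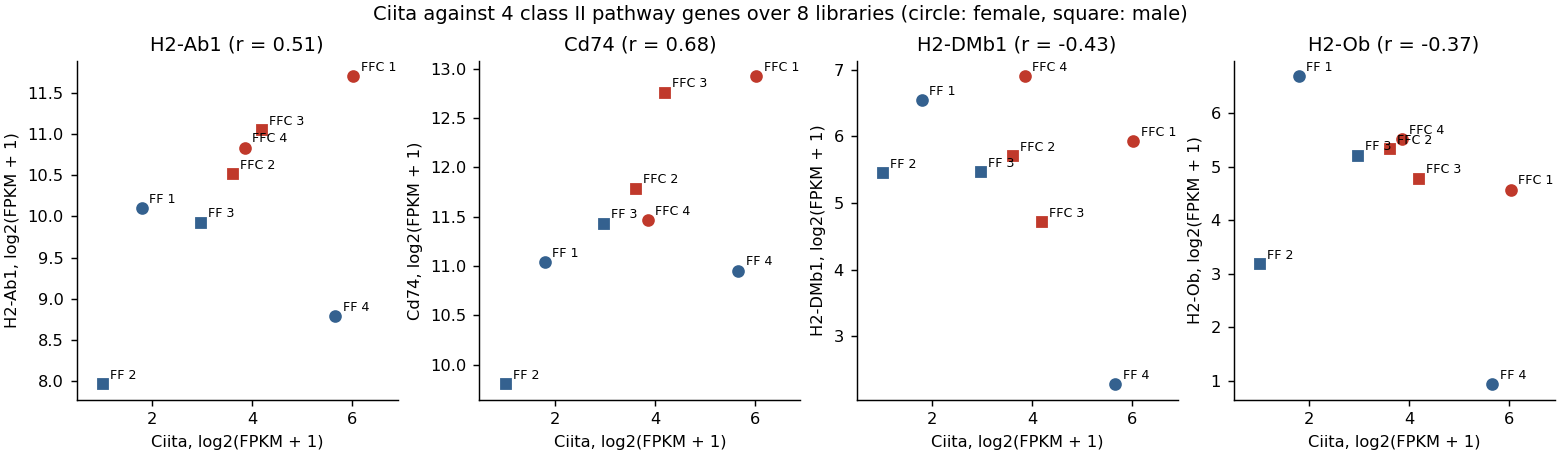
Level of H2-Ab1, Cd74, H2-DMb1 and H2-Ob against the level of Ciita, both as log2(FPKM + 1), in 4 FFC libraries (red) and 4 FF libraries (blue), with Pearson's r over all 8 in each title. FF 4 lies far to the right of the other FF libraries in every panel, and the r values run from 0.68 for Cd74 to -0.43 for H2-DMb1.

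Among themselves the genes fell into a group of 7, H2-Aa, H2-Ab1, H2-Eb1, Cd74, H2-DMa, H2-DMb2 and H2-Oa, that was formed after seeing the values. As a description over 8 libraries, r between the 21 pairs of these 7 ranged from 0.70 (Cd74 and H2-DMa) to 0.96 (H2-DMb2 and H2-Oa). As deviations from the genotype means the same pairs ranged from 0.52 to 0.96. H2-DMb1 and H2-Ob resembled each other (r = 0.87, rho = 0.79, and r = 0.56 without FF 4 and FFC 4) more than they did Cd74, with which r was 0.10 and 0.31. FF 2 was the lowest library for each of the 7. Without FF 2 and 1 more library, the 2 farthest from the median of the first gene of a pair, r among the 7 ranged from 0.34 (Cd74 and H2-DMa) to 0.95 (H2-Aa and H2-Eb1), and was 0.35 for H2-Ab1 and H2-DMa and 0.65 for H2-DMb2 and H2-Oa.

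**Figure D4:**
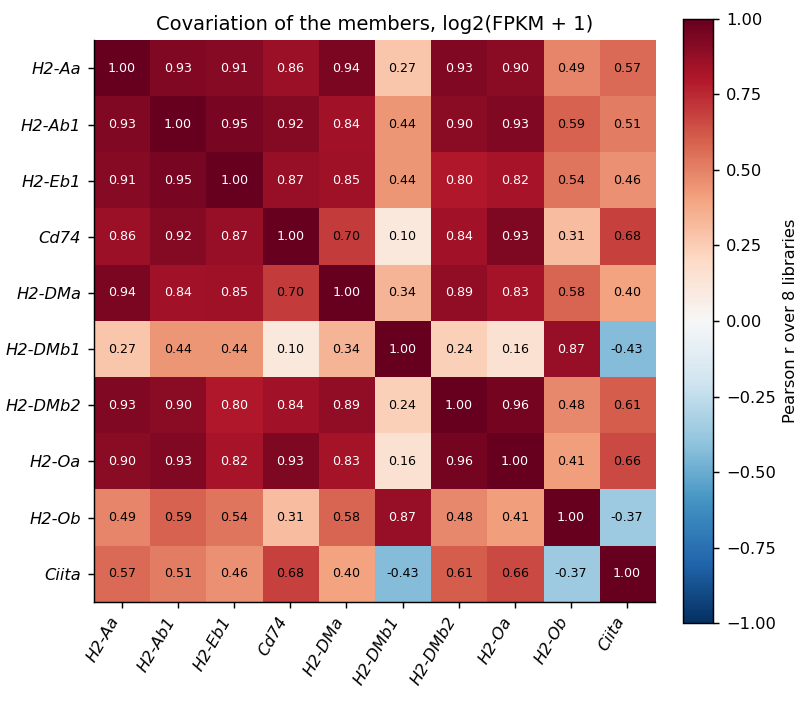
Pearson's r between the class II pathway genes over 8 libraries, on log2(FPKM + 1) values, with red for positive and blue for negative r. The 7 genes H2-Aa, H2-Ab1, H2-Eb1, Cd74, H2-DMa, H2-DMb2 and H2-Oa have r from 0.70 to 0.96 with each other, H2-DMb1 and H2-Ob pair at 0.87, and Ciita has negative r with those 2.

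The genes outside the 10 whose pattern was nearest to that of Ciita, among 8081 with a mean of at least 5 FPKM, were Cdc37l1 (r = 0.96), Ube2w (0.95), Plekhm3 (0.94), Mlec (0.93) and Lhfpl2 (0.92), each over 8 libraries. Nearest to the mean of the other 9 genes were Rnpep (0.98), Epsti1 (0.98), Purb (0.97), Rpl10a (0.97) and Shmt2 (0.97). The ribosomal protein gene Rpl10a had 604, 603, 640 and 688 FPKM in FFC and 550, 70.2, 469 and 153 FPKM in FF, with FF 2 and FF 4 low as for H2-Ab1. For comparison, H2-Ab1 had r = 0.98 with that mean, which includes it, and H2-DMb1 had 0.52.

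The order of levels was steady at the top and loose below. Cd74 lay above H2-Ab1 in 8 of 8 libraries, H2-Eb1 above H2-DMa in 8 of 8 and H2-DMa above H2-Oa in 8 of 8. H2-Ab1, H2-Aa and H2-Eb1 differed in order between libraries, with mean log2(FPKM + 1) differences of 0.08 ± 0.46 and 0.15 ± 0.47 between neighbours (SD over 8 libraries), within their spread. H2-Oa, H2-DMb1, H2-Ob, Ciita and H2-DMb2 followed in that order of the mean, and no neighbours among them kept their order in more than 6 of 8 libraries. The 10 genes together held 3.20%, 1.35%, 2.54% and 1.38% of the summed FPKM in FFC 1 to FFC 4, against 0.955%, 0.466%, 0.952% and 1.07% in FF 1 to FF 4. The FFC shares were all above the FF shares.

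Of 8 ratios between the genes, none differed between the genotypes after adjustment over the 8. The log2 ratio of H2-DMa to H2-Ab1 was lowest in FFC 1, and ranged from -2.66 to -1.25 in FFC and from -1.49 to -0.57 in FF (difference -0.89, exact two-sided permutation p = 0.0571, adjusted p = 0.457). Cd74 to H2-Ab1 averaged 1.21 ± 0.44 in FFC and 1.61 ± 0.52 in FF (exact two-sided permutation p = 0.286, adjusted p = 0.686). Ciita to H2-Ab1 averaged -6.60 ± 0.62 in FFC and -6.33 ± 2.23 in FF (exact two-sided permutation p = 0.943, adjusted p = 0.943). H2-Ob to H2-Oa spanned -3.66 to -0.91 in FFC and -3.77 to 2.80 in FF (exact two-sided permutation p = 0.343, adjusted p = 0.686). The FFC range of that ratio lay inside the FF range.

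Set against the mean of the 10 microglia markers in the same library, H2-Ab1 still did not overlap between the genotypes. The share of all genes without overlap on this scale is not given here. Its excess over that mean was 4.86, 2.94, 3.36 and 2.73 on the log2(FPKM + 1) scale in FFC and 2.38, 1.57, 2.13 and 1.84 in FF, a difference of 1.49 without overlap (exact two-sided permutation p = 0.0286, not adjusted; 0.0571 without any 1 FF library and 0.200 without FF 2 and FF 4, where no p under 0.05 can be had). For Cd74 the difference was 1.09 (exact two-sided permutation p = 0.143), for H2-Eb1 1.27 (0.0571), for H2-Aa 1.07 (0.171) and for H2-Oa 2.71 (0.0571). Those 4 overlapped between the genotypes. So did H2-DMa (0.60), H2-DMb1 (0.54), H2-DMb2 (0.82), H2-Ob (0.71) and Ciita (1.22), with exact two-sided permutation p from 0.171 to 0.657. FFC 1 gave the highest excess of H2-Aa, H2-Ab1, H2-Eb1, Cd74 and H2-Oa, and without FFC 1 the difference was 1.03 for H2-Ab1, 0.87 for H2-Eb1, 0.66 for H2-Aa and 0.62 for Cd74. Without FF 2 that of H2-Oa was 1.71.

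Sex and the month in the sample titles were looked at as further groupings. Females had a higher mean than males for 9 of the 10 genes, with genotype as a covariate. The share of all genes higher in females is not given here, so this count has no background. Of the 10, 0 passed limma (smallest adjusted p = 0.953), and 0 had an unadjusted p under 0.05, against 3.99% of all genes. The difference between genotypes for H2-Ab1 was 1.82 in females and 1.84 in males, and for H2-Aa 0.87 in females and 1.94 in males. The genotype by sex interaction passed for 0 of the 10 (limma, smallest adjusted p = 1.00; 0 unadjusted, against 3.19% of all genes), and 0% of all genes were called for sex or for the interaction (6 genes for the interaction with no filter on low values). The titles name November for 1 FFC and 3 FF libraries and December for 3 FFC and 1 FF library, so each month has a lone library on one side. The H2-Ab1 difference was 2.37 within November and 2.01 within December, and that of Cd74 2.16 within November and 1.05 within December. For Ciita it was 4.09 within November and -1.77 within December, where FF 4 is the lone FF library.

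The genes around the pathway were taken as fixed lists, and 0 of their members passed limma after adjustment over all genes. Counts of higher and lower genes, here and for cell type markers, refer to mean log2(FPKM + 1). Among the endosomal processing genes, mean log2(FPKM + 1) was higher in FFC for 11 of 11, against 56.7% of all genes. Of the 11, 1 had an unadjusted p under 0.05, against 6.46% of all genes. Sppl2a counts as higher by only 0.0026, and its mean FPKM was lower in FFC (49.0 ± 24.0) than in FF (51.1 ± 30.3). The median difference of the 11 was 0.60, against 0.19 for all genes tested. It was 0.03 without FF 2 and FF 4, against 0.07 for all genes. With the chemosensory covariate it was -0.20, against 0.0077 for all genes. The invariant chain protease Ctss averaged 1823 ± 417 FPKM in FFC and 1287 ± 570 in FF. Ctsh, another cysteine cathepsin, had 612, 809, 1268 and 833 FPKM in FFC and 494, 153, 600 and 282 FPKM in FF (limma adjusted p = 0.712). Its genotypes did not overlap, against 3.05% of all genes with every FFC value above every FF value. Ctsb had 322 ± 55.8 FPKM in FFC and 185 ± 121 in FF, and Ctsd 1043 ± 137 and 671 ± 343 in the same order.

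Of 8 tested genes that carry interferon gamma signals to Ciita, 6 were higher and 2 lower in FFC, against 56.7% of all genes higher. Of these 8, 4 had an unadjusted p under 0.05, against 6.46% of all genes. Their median difference was 1.72, against 0.19 for all genes. Without FF 2 and FF 4 it was 0.79, against 0.07 for all genes. The transcription factor gene Irf1 had 28.3, 26.4, 22.4 and 9.79 FPKM in FFC and 5.23, 0.307, 3.48 and 7.64 FPKM in FF, and Usf1 had 24.1, 7.33, 29.3 and 22.9 in FFC and 6.25, 0.913, 2.41 and 2.92 in FF. Neither overlapped between the genotypes (limma adjusted p = 0.712 and 0.652), against 3.05% of all genes with every FFC value above every FF value. The receptor chain Ifngr2 averaged 98.6 ± 41.9 in FFC and 31.6 ± 19.5 in FF, and the other chain Ifngr1 had 128, 253, 135 and 225 FPKM in FFC and 462, 99.3, 227 and 197 FPKM in FF, with FF 1 the highest. Interferon gamma itself (Ifng) had 0.161 FPKM in FFC 3 and was listed at 0 in the other FFC libraries and in all 4 FF libraries.

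The complex on the X and Y boxes was not uniform. In FFC, 5 of 7 genes were higher and 2 lower on the log2(FPKM + 1) scale, against 56.7% of all genes higher. Rfxank counts as higher by only 0.02, and its mean FPKM was lower in FFC (4.73 ± 4.29) than in FF (6.19 ± 6.73). Of the 7, 0 had an unadjusted p under 0.05, against 6.46% of all genes. The median of the 7 was 0.83, against 0.19 for all genes. With the chemosensory covariate it was -0.42, against 0.0077 for all genes. Nfya had 51.4 ± 39.3 FPKM in FFC and 21.1 ± 16.2 in FF, Nfyb 13.5 ± 8.21 FPKM in FFC and 4.39 ± 4.51 in FF, and Rfxap 4.51 ± 2.44 and 1.08 ± 1.12 in the same order. Rfx5 had 1.66, 7.93, 9.56 and 9.71 FPKM in FFC and 123, 1.01, 13.7 and 6.85 FPKM in FF, where FF 1 stood far above the rest. The ubiquitin ligase gene March1, whose product removes class II from the surface, had 20.3 ± 3.79 FPKM in FFC and 8.54 ± 7.70 in FF, and March8 had 42.0, 12.01, 9.52 and 27.7 in FFC and 224, 33.9, 8.29 and 16.7 in FF. The higher FF mean of March8 rests on FF 1.

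Costimulation and checkpoint genes were higher in FFC for 7 of 8 and lower for 1, against 56.7% of all genes higher (3 had an unadjusted p under 0.05, against 6.46%), and their median difference was 1.37. Lag3, known in T cells as a receptor that binds MHC class II, had 115, 41.8, 86.6 and 38.4 FPKM in FFC and 11.0, 5.67, 9.67 and 5.33 FPKM in FF, the smallest p of these lists (log2 difference 2.91 ± 0.66, SE; limma adjusted p = 0.496). Every FFC value was above every FF value, as in 3.05% of all genes. Cd83, a surface protein of mature antigen-presenting cells, had 67.3, 15.2, 26.6 and 26.5 FPKM in FFC and 6.12, 7.87, 8.85 and 3.05 in FF, also without overlap (limma adjusted p = 0.712). Cd274, the ligand PD-L1, averaged 15.0 ± 14.7 FPKM in FFC and 0.901 ± 0.572 in FF (limma adjusted p = 0.712). Its genotypes overlapped: FFC 4 (1.24 FPKM) lay below FF 3 (1.29) and FF 4 (1.48), while FFC 1 had 35.4. The gene that was lower in FFC was Cd40, with 19.4 ± 25.4 FPKM in FFC and 38.5 ± 42.1 in FF.

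**Figure D5:**
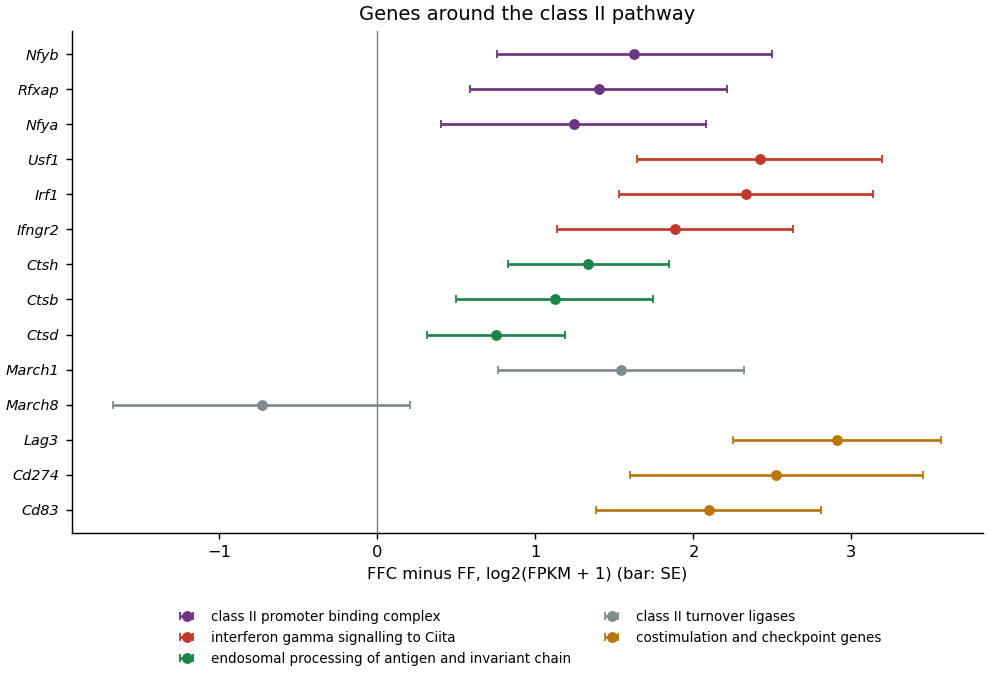
FFC minus FF on the log2(FPKM + 1) scale, with the limma SE as a bar, for the genes with the smallest unadjusted p (up to 3) of each of 5 fixed lists around the class II pathway, coloured by list. Lag3 has the largest difference shown (2.91), the endosomal processing genes shown lie between 0.75 and 1.34, and none passed the test after adjustment over all genes.

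Markers of other cell types that carry class II were present too, at levels that differed widely between lists and libraries. B cell markers summed to 201 to 525 FPKM in FFC and 270 to 990 FPKM in FF, mostly from Ighm and Blnk. The defining B cell gene Ms4a1 had 0.0676 to 5.87 FPKM in FFC and 0.524 to 8.56 in FF. FF 1, the library with the highest Ms4a1 and summed B cell markers, was also the one with the highest H2-Ob. Of 7 tested B cell markers, 2 had a higher mean in FFC and 5 a lower one.

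Dendritic cell markers summed to 106 to 496 FPKM in FFC and 155 to 434 FPKM in FF, mostly from Siglech, which microglia express too. Of 9 tested dendritic cell markers, 5 had a higher mean in FFC and 4 a lower one (median difference 0.01). Batf3 had 4.92 to 19.03 FPKM in FFC and 0.531 to 8.65 in FF, and Cd209a 0.818 to 13.3 in FFC and 0 to 1.07 in FF. Zbtb46, a defining gene of that lineage, had 0.0110 to 2.73 FPKM in FFC and 1.36 to 23.1 in FF, and Flt3 0.131 to 0.483 and 0.261 to 6.202 in the same order. Clec9a reached 66.9 FPKM in FFC 3. Border macrophage markers summed to 113 to 1090 FPKM in FFC and 374 to 1220 FPKM in FF, with 2 of 8 higher in FFC, and Mrc1 had 32.3 to 168 and 121 to 324 FPKM in the same order. Monocyte markers summed to 31.5 to 599 FPKM in FFC and 223 to 2170 FPKM in FF, with 2 of 7 higher in FFC. The high sum of FF 1 came mostly from S100a8 (975 FPKM) and S100a9 (1126 FPKM). Ccr2 had 0.340 to 55.2 FPKM in FFC and 5.86 to 45.6 in FF. T cell markers summed to 15.9 to 58.9 FPKM in FFC and 34.1 to 476 FPKM in FF, with 2 of 8 higher in FFC. Astrocyte markers summed to 90.8 to 188 FPKM in FFC and 51.8 to 196 FPKM in FF, mostly from Slc1a3, with 3 of 4 tested higher in FFC. Oligodendrocyte markers summed to 10.6 to 50.5 FPKM in FFC and 13.3 to 42.1 FPKM in FF, with 4 of 4 tested higher in FFC. None of these markers passed limma, and 56.7% of all genes had a higher mean in FFC. The part of these cells in the class II levels was not tested.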

How the data were processed

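The authors deposited FPKM values for 37447 genes in 8 libraries. Cufflinks 2.0.2, Bowtie2 2.0.0, TopHat2 2.0.4, CASAVA 1.8.2 and the build mm9 are named, without role or order, in the submitters' processing notes; the sources used here do not give annotation, settings or strand. Microglia were taken from a Percoll gradient by flow sorting, and cDNA was amplified from little RNA with the Ovation method, per the labels' protocols, which can leave out or enlarge transcripts. The labels and files do not give the sort markers or depth.

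Genes with a missing value (447) were left out. Starts count from 0 in the table (21680 gene lengths then equal GENCODE M21, 420 otherwise) and are printed from 1. Symbols not found (March1 and March8, garbled to dates, and Sppl2a) were matched by Ensembl identifier. Listed genes without a complete row were not analysed here. Values were tested as log2(FPKM + 1), which understates folds of low genes, for the 17753 genes that averaged 1 FPKM or more. The test was limma 3.58.1 in R 4.3.3, two-sided and with a mean-variance trend, at a Benjamini-Hochberg adjusted p of 0.05. Single values had exact permutation tests over 70 arrangements, correlations over all 40320 orders. Python 3.11.15, numpy 2.4.6, pandas 2.3.3 and matplotlib 3.10.9 did the rest. The tests were checked on simulated data, which for limma were independent normal values without outlying libraries.

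The genes, lists and tests were chosen with earlier results of these data known. All 10 genes are named. From each list, the genes with the smallest unadjusted p are named, up to 3. The 5 genes nearest in pattern to Ciita and to the mean of the other 9 are also named (Pearson, mean of at least 5 FPKM, no predicted genes, small RNAs or pseudogenes). Some others are named for their role (Ctss, Ifngr1, Ifng, Rfx5, H2-Eb2, cell type markers) or their values (Sppl2a, Rfxank, Cd40), all chosen after their values were seen. Alternatives were pseudocounts of 0.1 and 5, other filters and scalings, sex, month, replicate number or chemosensory receptor share as terms, and leaving out libraries. Replicate numbers were not used to pair libraries.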

Additional observations from a re-analysis of the deposited data

How the results depend on the processing

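No gene of the pathway was called in any alternative. Over all genes, the count called was 0 and ranged from 0 to 1 when 1 library was left out: SNORA65 without FFC 4 and Mir15a without FF 1. H2-Aa, H2-Ab1, H2-Eb1, Cd74, H2-Oa and Ciita kept a higher mean in FFC in all 19 alternatives, from 0.38 to 1.85 (H2-Aa), 0.80 to 2.19 (H2-Ab1), 0.92 to 1.94 (H2-Eb1), 0.93 to 1.68 (Cd74), 0.62 to 3.80 (H2-Oa) and 0.94 to 2.49 (Ciita). With the chemosensory receptor share as a covariate 6 of the 10 were higher, against 50.2% of all genes. H2-DMa was at -0.18, H2-DMb1 at -0.19, H2-DMb2 at -0.25 and H2-Ob at -1.17. The cause was not tested. Without FF 2 and FF 4, H2-DMb1 was at -0.19 and H2-Ob at -0.90 (-0.70 relative to microglia markers), and the FFC minus FF differences in the log2 ratios of H2-Eb1 and of Ciita to H2-Ab1 were 0.036 and 1.03. With 1 library left out, the ranges were 9 to 10 genes higher, -0.0064 to 1.41 for H2-DMb1, -0.59 to 0.95 for the FFC minus FF difference in the log2 ratio of H2-DMa to H2-DMb1, -0.58 to 1.22 for that of H2-DMb2 to H2-DMb1, -0.93 to 0.80 for that of Ciita to H2-Ab1, -0.26 to 0.99 for H2-DMb1 and -0.23 to 1.43 for H2-Ob relative to microglia markers, and, for r with Ciita, -0.27 to 0.63 (H2-DMa) and -0.74 to 0.0515 (H2-Ob). The difference in the log2 ratio of Ciita to H2-Ab1 was 0.026 with a pseudocount of 0.1, and that of H2-DMb2 to H2-DMb1 -0.040 with a pseudocount of 5. Female minus male turned to -0.091 (Cd74) and -0.17 (H2-DMb1) with upper-quartile scaling, -0.11 (H2-DMb1) with quantile normalization and 0.059 (H2-Ob) with a pseudocount of 5. The interaction turned to -0.10 (H2-Eb1) with upper-quartile scaling, and to 0.044 (H2-DMb2) and -0.12 (H2-Ob) with a pseudocount of 5; over all genes it was called for 6 with no filter and for 0 otherwise. Upper-quartile scaling gave a median of all genes of 0.02, against 0.19 in the main analysis; relative to that median the 10 genes had 1.23 in the main analysis, 1.15 after upper-quartile scaling and 1.08 after quantile normalization. The share of higher genes among those at an unadjusted p under 0.05 was 70.0%, and 59.4%, 39.8% and 34.1% with upper-quartile scaling, without FF 2 and FF 4 and with the covariate. Promoters holding the motifs numbered 2 for the X1 and Y pair, 7 for the Y box on any strand and 4 for the shorter core.

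Same-numbered FFC and FF libraries were of the same sex. They did not deviate together (correlations of -0.05 to 0.03 over genes, and 1 of 8 libraries correlated best with its own number). These values cannot show whether the numbers stand for pairs. With replicate number as a block the differences were the same, the smallest adjusted p of the 10 was 0.789 and 0 genes were called, 1014 at an unadjusted p under 0.05 against 1146 without the block.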
